A study of Mus musculus with 2 samples.

Results

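The genes described here make, store and take up the monoamine transmitters or specify the neurons that use them. They were 9 genes, chosen by name as Th, Dbh, Ddc, Slc18a2, Slc6a2, Phox2a, Hand2, Tph2 and Fev, of 43346 genes listed in the deposited files, and all 9 were found by their GENCODE symbol. RNA came from neural tube, the embryonic precursor of brain and spinal cord, of healthy B6NCrl mouse embryos at embryonic day 11.5. The tissue label reads neural tube and does not state which brain regions were included. There was 1 group of 2 libraries and no treatment or genotype to compare. Replicate 1 pooled tissue of 109 embryos and replicate 2 tissue of 88 embryos, with males and females together in each, so a value is that of a pool and not of an animal, and an SD is the spread between these pools only. Replicate 1 held 27638068 expected counts over genes and spike-ins and replicate 2 held 29166901. Of 9 neural tube markers 8 reached 1 TPM in both libraries, from Sox1 at 1.61 ± 0.177 TPM to Dcx, Hes5 and Tubb3 at 132 ± 14.2, 161 ± 17.1 and 740.3 ± 86.8 TPM (SD, n = 2), and the exception was Olig2 at 0.98 TPM in replicate 1 and 1.67 TPM in replicate 2.

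As background, catecholamines are built from tyrosine in successive steps. Tyrosine hydroxylase, encoded by Th, makes L-DOPA, the decarboxylase encoded by Ddc turns it into dopamine, and dopamine beta-hydroxylase, encoded by Dbh, turns dopamine into noradrenaline. Serotonin is made from tryptophan by a tryptophan hydroxylase, encoded by Tph2 in neurons, followed by the same Ddc enzyme. The vesicular transporter of Slc18a2 loads these amines into vesicles, and the noradrenaline transporter of Slc6a2 takes noradrenaline back up. Phox2a and Hand2 encode transcription factors of noradrenergic and sympathetic neurons, and Fev, also called Pet1, encodes an ETS factor of serotonin neurons. Sympathetic neurons arise from neural crest outside the neural tube, noradrenergic and serotonin neurons of the brain arise in the hindbrain, and most dopamine neurons arise in the midbrain.

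Upstream sequences are shown for the genes with the highest levels, Slc18a2 and Th, because both held the same uncommon motif. They are also shown for the alternative starts of Ddc, because the deposited estimate assigned reads of the 2 libraries to different transcripts. The windows ran from 250 bases before to 50 after each RefSeq start on GRCm38.p6, and 8 of the 9 genes had one or more, 9 windows in all. Printed stretches, 5′ to 3′ on the strand of the gene, end at the base before the start of a GENCODE transcript. They lie at chr7:142900015-142900245 on the minus strand for Th, chr19:59260628-59260895 on the plus strand for Slc18a2, chr11:11890409-11890658 on the minus strand for the downstream Ddc start and chr11:11898145-11898394 on the minus strand for the upstream Ddc start. Capitals mark the cAMP response element TGACGTCA in Th and Slc18a2 and the CCAAT box (CCAAT, or ATTGG on the other strand) in Ddc, where the upstream start had none. The upstream Ddc stretch ends before Ddc-210, which had 0 counts in both libraries, and the transcript that received reads there, Ddc-201, starts downstream of it at 11898044.
Th, upstream of its start: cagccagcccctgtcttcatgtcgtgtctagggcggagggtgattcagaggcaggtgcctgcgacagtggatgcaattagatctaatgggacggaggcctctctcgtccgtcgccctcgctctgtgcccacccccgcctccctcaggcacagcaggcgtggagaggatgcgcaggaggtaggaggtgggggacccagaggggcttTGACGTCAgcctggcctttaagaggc
Slc18a2, upstream of its start: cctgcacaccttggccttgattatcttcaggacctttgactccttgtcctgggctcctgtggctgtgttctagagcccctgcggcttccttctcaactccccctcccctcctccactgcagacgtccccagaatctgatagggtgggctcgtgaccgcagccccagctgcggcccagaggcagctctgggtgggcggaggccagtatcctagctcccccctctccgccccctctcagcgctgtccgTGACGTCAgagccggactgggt
Ddc, downstream start, before Ddc-202: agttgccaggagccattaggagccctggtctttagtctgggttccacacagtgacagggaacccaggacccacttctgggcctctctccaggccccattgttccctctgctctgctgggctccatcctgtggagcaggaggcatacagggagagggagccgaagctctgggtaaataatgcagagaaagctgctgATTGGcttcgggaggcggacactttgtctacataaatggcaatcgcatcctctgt
Ddc, upstream start, before Ddc-210: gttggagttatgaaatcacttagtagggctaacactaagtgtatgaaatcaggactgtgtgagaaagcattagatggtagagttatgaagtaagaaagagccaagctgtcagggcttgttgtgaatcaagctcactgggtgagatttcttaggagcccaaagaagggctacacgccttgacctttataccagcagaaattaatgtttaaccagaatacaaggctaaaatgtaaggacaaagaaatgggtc

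The cAMP response element, the site of CREB-family factors, stood in 2 of the 9 windows, those of Th and Slc18a2, against 1.79% of 32851 windows of all genes. Its first base lay 45 bases before the RefSeq start of Th. In Slc18a2 it began 4 bases before the RefSeq start and ran across it. A CCAAT box was found 55 bases before the downstream start of Ddc and not in the upstream window. Of the 9 windows 4 held one, on either strand, against 37.4% of all. The core homeodomain motif CAATTA, searched on both strands, stood in the windows of Th, Dbh and Hand2, 3 of 9, against 8% of all windows, and in Dbh it overlapped a CCAAT box. The RefSeq start of Dbh is 27165507, and Dbh-201, the transcript that took all Dbh counts, starts at 27165233. The whole Dbh window thus lies after the start of that transcript. The TATA box TATAAA stood in 2 of 9 windows, 30 bases before the start of Tph2 and, on the other strand, 68 bases before the upstream start of Ddc, against 13.6% of all windows. The E-box CANNTG, the motif of bHLH factors such as Hand2, stood in 6 of 9 windows, against 72.3% of all. A match describes letters and not binding, which was not measured.

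Transcripts of the catecholamine synthesis genes were detected, with Dbh below Th and Ddc; enzymes and transmitters were not measured. Th (ENSMUSG00000000214.6, chromosome 7, 142892752 to 142931128, minus strand, GRCm38) had 217 expected counts and 7.21 TPM in replicate 1 and 280 counts and 9.02 TPM in replicate 2. TPM is the deposited level per transcript length, scaled to a common total. Replicate 2 was the higher, and the exact Poisson 95% intervals, which cover counting error only, ran from 6.28 to 8.24 TPM in replicate 1 and from 7.99 to 10.1 TPM in replicate 2, so they overlapped. Ddc (ENSMUSG00000020182.12, chromosome 11, 11814101 to 11898144, minus strand) had 5.27 and 5.98 TPM in replicates 1 and 2, from 139 and 142 counts. Its coding transcripts held 3.42 TPM of this in replicate 1 (Ddc-202) and 2.73 TPM in replicate 2 (Ddc-201). All Th counts went to 1 coding transcript. Dbh (ENSMUSG00000000889.8, chromosome 2, 27165233 to 27183200, plus strand) had 1.5 and 1.23 TPM, from 64 and 54 counts. Over all transcripts of each gene, the level of Ddc over Th was -0.51 ± 0.10 as a log2 ratio (SD, n = 2, pseudocount 0.1 TPM). The log2 ratio of Dbh over Th was -2.48 ± 0.41. Dbh was thus 5.6-fold below Th, and both ratios had the same sign in each library. Whole tissue does not show whether these transcripts lay in the same cells, and fewer cells of a type cannot be told apart from less RNA per cell.

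The 9 genes fell into a high, a middle and a low group. Slc18a2 (ENSMUSG00000025094.7, chromosome 19, 59260896 to 59296012, plus strand) led with 12.3 TPM in replicate 1 and 11.7 TPM in replicate 2, from 790 and 777 counts. At a mean of 11.98 ± 0.403 TPM it stood above 62.0% of protein-coding genes. Th at 8.12 ± 1.28 TPM and Ddc at 5.63 ± 0.502 TPM followed, and each of these 3 differed from its neighbour in the order by more than the sum of their SDs, with no overlap of the libraries. Dbh at 1.36 ± 0.191 TPM and Phox2a at 1.18 ± 0.424 TPM did not differ beyond their spread, and both lay below Ddc and above Tph2 by more than that spread. Below Phox2a, the neighbours Tph2 and Hand2, Hand2 and Fev, and Fev and Slc6a2 were not separated. Of the 9 genes 4, Slc18a2, Th, Ddc and Dbh, reached 1 TPM in both libraries, the level called detected here, against 59.9% of all protein-coding genes. Their median was 1.18 TPM, against 4.39 TPM for all protein-coding genes.

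**Figure D1:**
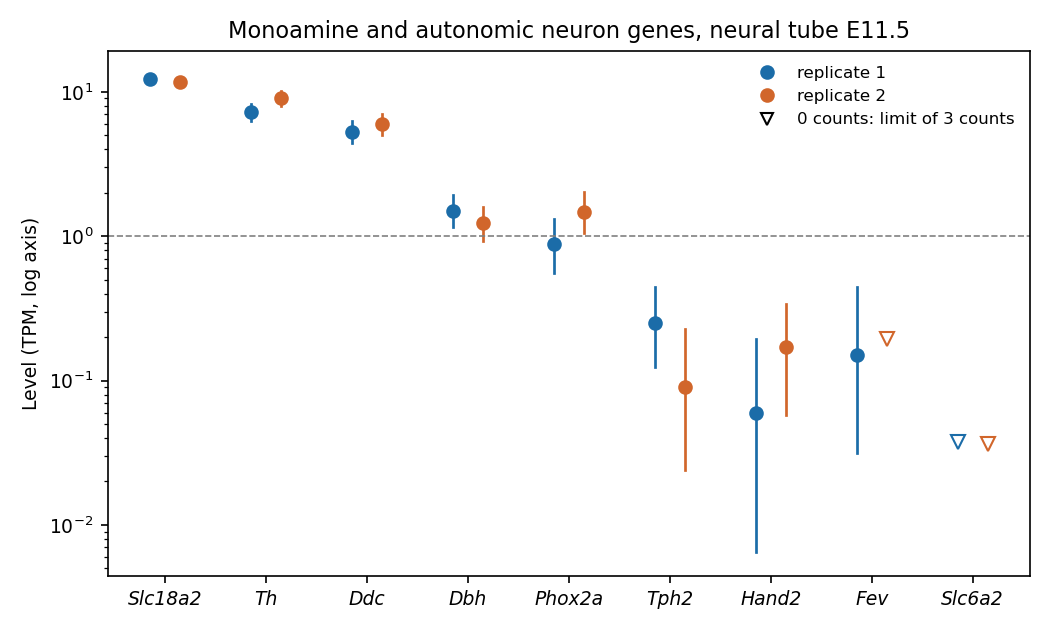
Level of each of the 9 genes in TPM on a log axis, replicate 1 in blue and replicate 2 in orange, with exact Poisson 95% intervals from the counts; open triangles mark libraries with 0 counts at the level that 3 counts would give, and the dashed line is 1 TPM. Slc18a2, Th and Ddc lie above 5 TPM in both libraries, Dbh and Phox2a lie near 1 TPM, and the other 4 genes lie below it.

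The vesicular and plasma membrane transporters stood at opposite ends of the set. Slc18a2 exceeded Slc18a1, the vesicular amine transporter best known from neuroendocrine cells, by a log2 ratio of 3.56 ± 0.23 (SD, n = 2), or 2.75 with a pseudocount of 1 TPM and 2.91 with posterior mean TPM, with Slc18a1 at 1.07 and 0.79 TPM from 56 and 33 counts in replicates 1 and 2. Slc6a2 (ENSMUSG00000055368.9, chromosome 8, 92960079 to 93001667, plus strand) had 0 counts in both libraries, where 3 counts, taken as the limit, would be 0.0377 TPM (replicate 1) and 0.0366 TPM (replicate 2). Slc6a3, the dopamine transporter gene, had 0.15 and 0.03 TPM from 9 and 2 counts, and no ratio to Slc6a2 is given. Platelets and megakaryocytes are also known to use Slc18a2. All 5 of their markers were detected, with a sum of 85.9 TPM (replicate 1) and 94.9 TPM (replicate 2), led by Pf4 at 56.6 ± 5.23 TPM, Ppbp at 17.1 ± 0.191 TPM and Gp1bb at 9.56 ± 1.34 TPM, and none was at 0. Their part in the Slc18a2 level was not tested. Of 5 mast cell markers 1 was detected, Kit at 16.1 ± 2.21 TPM, which other cells express too. Cpa3 and Ms4a2 followed at 0.885 ± 0.0495 and 0.09 ± 0.0424 TPM, Cma1 and Fcer1a had 0 counts in both libraries, and the summed level was 15.6 TPM in replicate 1 and 18.6 TPM in replicate 2.

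Among the autonomic regulators, Phox2a stood near the detection level and Hand2 near 0. Phox2a (ENSMUSG00000007946.10, chromosome 7, 101818313 to 101822726, plus strand) had 0.88 TPM from 23 counts in replicate 1 and 1.48 TPM from 40 counts in replicate 2. Replicate 2 was the higher, and the counting intervals, from 0.555 to 1.31 TPM in replicate 1 and from 1.054 to 2.01 TPM in replicate 2, overlapped. Phox2a overlaps Inppl1, on the opposite strand, by 95 bases at its end, and Inppl1 had 875 and 988 counts in replicates 1 and 2. Hand2 (ENSMUSG00000038193.3, chromosome 8, 57320983 to 57324633, plus strand) had 2.27 and 6.48 expected counts in replicates 1 and 2, or 0.06 and 0.17 TPM, with intervals from 0.00652 to 0.194 TPM and from 0.0574 to 0.341 TPM. The antisense gene Hand2os1 overlaps 3251 bases of Hand2 and had 6 and 4 counts, and reads of such overlaps are not separable if strand was not kept. Hand1, the other Hand gene, had 0.20 TPM in replicate 1 and 0.43 TPM in replicate 2.

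Markers of other tissues that use these factors were present at uneven levels. Heart muscle, where Hand2 is also known to act, had 3 of 6 markers detected, with a sum of 27.6 TPM (replicate 1) and 39.3 TPM (replicate 2). Tnnt2 had 16.7 ± 1.60 TPM and Myh7 6.99 ± 0.445 TPM, while Myl7 had 3.04 TPM in replicate 1 and 13.4 TPM in replicate 2. Myh6 had 0.94 ± 0.0849 TPM, Gata4 0.505 ± 0.0212 TPM and the cardiac factor gene Nkx2-5 0.08 ± 0.0566 TPM. Limb bud and arch mesenchyme, another known site of Hand2, had 3 of 9 markers detected. These were Prrx1 at 27.2 ± 4.24 TPM, Ednra at 20.4 ± 6.42 TPM and Pitx1 at 3.04 ± 1.40 TPM. The list summed to 61.8 TPM (replicate 1) and 44.0 TPM (replicate 2), but its median was 0.67 TPM. Its lowest marker had 0.015 TPM, and none was at 0 in both libraries. Neural crest and Schwann precursor markers were all detected, 5 of 5, and had a sum of 58.8 TPM (replicate 1) and 78.0 TPM (replicate 2). Among them Sox10 had 22.9 ± 4.47 TPM and Erbb3 12.5 ± 1.78 TPM. The part of neural crest derivatives in the levels of the 9 genes was not tested. Of 6 markers of hindbrain visceral motor neurons 5 were detected, with a sum of 105 TPM in replicate 1 and 124 TPM in replicate 2. Isl1, at 97.7 ± 16.5 TPM, is shared with other young neurons. It made up most of that sum, with 86.0 TPM (replicate 1) and 109 TPM (replicate 2). Tbx3 had 9.19 ± 2.26 TPM and Tbx2 3.42 ± 0.361 TPM, while Tbx20 had 0.195 ± 0.0636 TPM.

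The serotonin neuron genes of the set were close to the counting limit. Tph2 (ENSMUSG00000006764.8, chromosome 10, 115078641 to 115185022, minus strand) had 0.25 TPM from 11 counts in replicate 1 and 0.09 TPM from 4 counts in replicate 2. Fev (ENSMUSG00000055197.4, chromosome 1, 74881509 to 74885419, minus strand) had 3 counts, or 0.15 TPM, in replicate 1 and 0 counts in replicate 2, where 3 counts would be 0.194 TPM. Tph1, the tryptophan hydroxylase best known from gut and pineal, had 0.76 and 0.62 TPM from 17 and 19 counts. The log2 ratio of Tph2 over Tph1 was -1.61 ± 0.44 (SD, n = 2), or -0.53 with a pseudocount of 1 TPM. In replicate 1 their counting intervals overlapped, from 0.125 to 0.448 TPM for Tph2 and from 0.444 to 1.22 TPM for Tph1. In replicate 2 they did not. Of other genes of the serotonin neuron programme 6 of 9 (66.7%) were detected, near the 59.9% of all protein-coding genes. The list median was 3.21 TPM, below the 4.39 TPM of all protein-coding genes. Gata3, Nkx2-2, En1 and Gata2, transcription factors that other neural tube cells also express, had 6.95 ± 0.141, 4.78 ± 0.672, 4.46 ± 0.445 and 4.43 ± 0.375 TPM. En2 had 0.01 ± 0.0141 TPM and the serotonin receptor gene Htr1a had 0.185 ± 0.0495 TPM. The serotonin transporter gene Slc6a4, named after its values were seen, had 0.37 TPM from 17 counts in replicate 1 and 1.15 TPM from 54 counts in replicate 2.

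Ddc was the only one of the 9 genes whose reads were spread over many annotated transcripts. In the deposited estimate the pools differed in the protein-coding form that took them. Ddc has 10 transcripts in the files, of which 6 received counts in at least 1 library. Th has 6, Fev has 3 and Dbh, Slc6a2 and Tph2 have 2 each, and all counts of Th, Dbh and Tph2 went to 1 transcript, while the other 3 genes have 1. In replicate 1, Ddc-202, which begins at the downstream start at 11890408, took 64.9% of Ddc and Ddc-201, which begins at 11898044 near the upstream start, took 0%. In replicate 2 the shares were 0% for Ddc-202 and 45.7% for Ddc-201. These forms overlap over most of their span, and Ddc had 139 and 142 counts in replicates 1 and 2. How well the reads tell the forms apart, and whether the start differed between the pools, was not tested. The noncoding form Ddc-206 took 23.9% and 34.9% in replicates 1 and 2. The posterior mean estimate of the same files, added as an alternative after the data were seen, gave Ddc-202 29.0% in replicate 1 and 12.4% in replicate 2, and Ddc-201 15.2% and 19.2%. That estimate gives every annotated transcript a share, also those of Slc6a2, which had 0 counts, so a share in it does not by itself show reads. The deposited gene length, which weights the transcripts by these shares, was 1615 bases in replicate 1 and 1421 bases in replicate 2. The TPM of Ddc was the higher in replicate 2, whereas its log2 ratio from counts, replicate 1 over replicate 2, was 0.06 with a counting interval from -0.29 to 0.40. In rat, Ddc is known to use different starts in neurons and in other tissues. Liver and gut endoderm markers, for tissues that also express Ddc, were detected in 2 of 5 cases, with Afp at 2.98 ± 1.28, Apoa1 at 1.33 ± 0.375 and Alb at 0.555 ± 0.219 TPM and no count for Cdx2; they had a sum of 6.3 TPM (replicate 1) and 3.61 TPM (replicate 2), and their part in the Ddc level was not tested. The antisense gene 1700042O10Rik, inside Ddc, had 10 counts in replicate 1 and 0 in replicate 2.

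**Figure D2:**
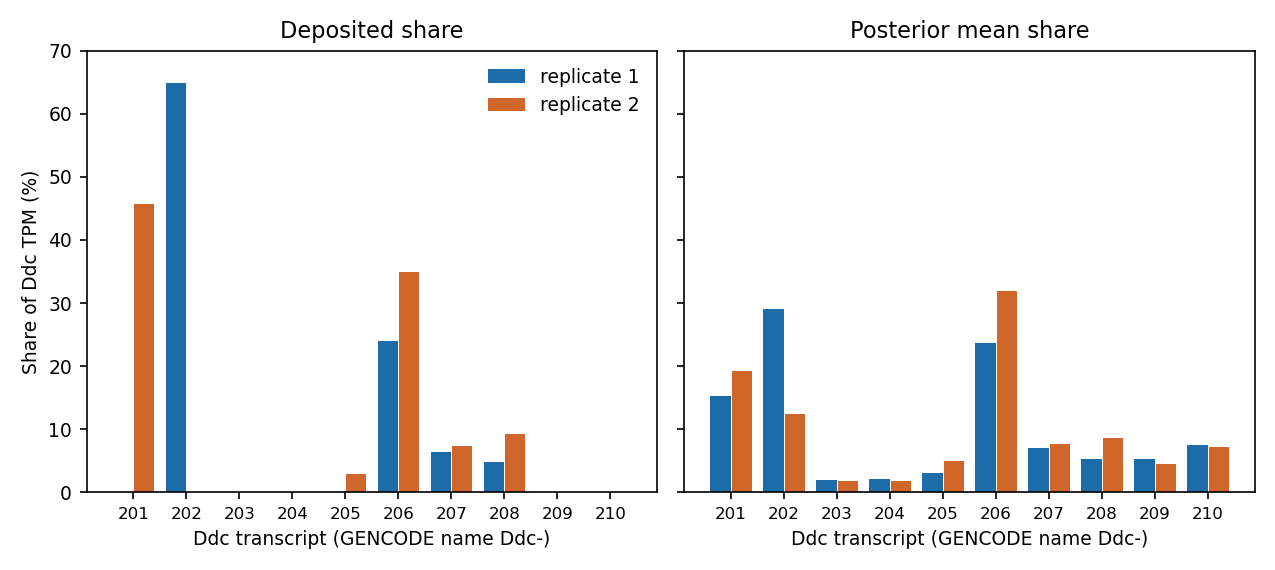
Share of Ddc TPM in percent for each of its 10 annotated transcripts, replicate 1 in blue and replicate 2 in orange, as deposited on the left and as the posterior mean estimate on the right. The deposited shares put Ddc-202 at 64.9% in replicate 1 and 0% in replicate 2, and the posterior mean estimate gives every transcript a share in both pools.

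The pools were compared by the log2 ratio of replicate 1 over replicate 2 from rounded counts, over genes with 10 counts in at least 1 library. With 1 library on each side there is no replicate check and no test, and the ratios describe these pools only. Of the 9 genes 6 passed that filter and 2 of them lay past 1.5-fold, against 10.8% of 17219 genes. Tph2 was the higher in replicate 1, with a log2 ratio of 1.18 and a counting interval from -0.21 to 3.65, and 5.94% of genes lay past 1.5-fold in that direction. Phox2a was the lower in replicate 1, at -0.67 with an interval from -1.52 to 0.06, and 4.87% of genes lay past 1.5-fold that way. With the main scaling, by TMM factors, both intervals include 0. Scaled to the spike-ins, Tph2 had 1.03 and Phox2a -0.85, and no interval was computed with that scaling. Both genes rest on a mean of 50 counts or fewer, where 42.1% of the genes passing the filter were past 1.5-fold. Above that mean 2.32% of genes were, and none of Slc18a2, Th, Ddc and Dbh. Their log2 ratios were -0.28 for Th, 0.32 for Dbh, 0.11 for Slc18a2 and 0.06 for Ddc, and those of Slc18a2 and Ddc turned to -0.09 and -0.14 when scaled to the spike-ins, which moved the median of all tested genes from 0.00 to -0.20. With the main scaling the counting interval of Th, from -0.54 to -0.02, left out 0, and those of the other 3 included it. Hand2 and Fev did not reach 10 counts and Slc6a2 had none.

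**Figure D3:**
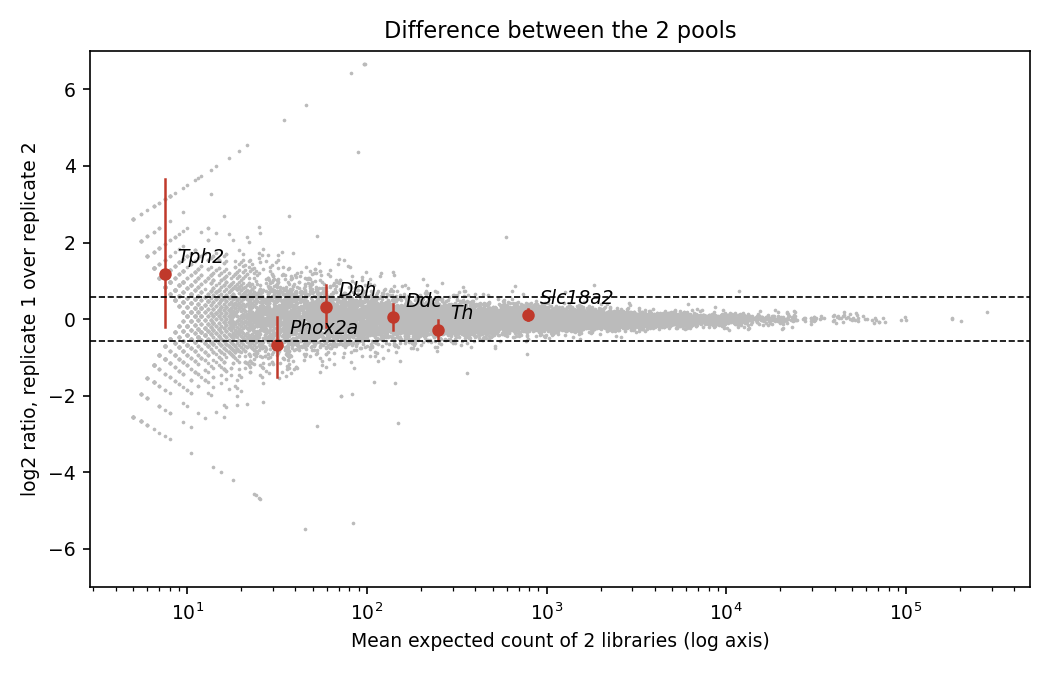
Log2 ratio of replicate 1 over replicate 2 against the mean expected count on a log axis, with all 17219 genes that passed the filter in grey and 6 of the 9 genes in red with their exact counting intervals; dashed lines mark 1.5-fold. Tph2 and Phox2a lie past the lines at low counts, where the grey points spread widest, and the other 4 lie between the lines.

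Of the cofactor genes of monoamine synthesis 4 of 6 stood above Th, and so did Maoa, which encodes a breakdown enzyme. Tetrahydrobiopterin is the cofactor of the hydroxylases of Th, Tph1 and Tph2, and all 6 genes of its list reached detection, with a list median of 29.7 TPM. Qdpr, which regenerates the cofactor, had 71.9 ± 1.92 TPM, and the synthesis genes Pts and Spr had 48.1 ± 1.32 and 39.3 ± 2.96 TPM. Pcbd1, which acts in its recycling, had 20.0 ± 0.120 TPM. Gch1, the entry enzyme of its synthesis, was the lowest at 1.82 ± 0.0636 TPM, followed by its regulator Gchfr at 2.69 ± 0.205 TPM. Of 11 other genes of monoamine synthesis, uptake and breakdown 5 were detected (list median 0.93 TPM). The low-affinity transporter gene Slc29a4 had 29.98 ± 1.75 TPM and Maoa, a monoamine oxidase, 10.8 ± 0.247 TPM. Cyb561, which supplies electrons to vesicles that hold the Dbh enzyme, had 9.86 ± 1.68 TPM. Slc6a3 and Slc22a3 were the lowest, at 0.09 ± 0.0849 and 0.175 ± 0.0212 TPM.

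Genes that autonomic neurons share with other young neurons were abundant. Of 11 other regulators 10 were detected (list median 20.0 TPM), with Sox11 at 468 ± 12.6 TPM, Sox4 at 130 ± 1.91 TPM, Isl1 at 97.7 ± 16.5 TPM and Tfap2b at 36.0 ± 3.15 TPM. The lowest was Hand1 at 0.315 ± 0.163 TPM. Of 12 features of autonomic neurons 11 were detected (list median 11.9 TPM). The nicotinic receptor subunit gene Chrna3 had 36.6 ± 1.24 TPM, the granule protein gene Chga 21.2 ± 2.18 TPM and the peptide gene Cartpt 15.99 ± 0.255 TPM, all of which other neurons express too. Vip had 0.215 ± 0.0212 TPM and Gfra2 4.21 ± 0.679 TPM. In the midbrain dopamine neuron programme 7 of 11 genes (63.6%) were detected, near the 59.9% of all protein-coding genes. The list median was 1.33 TPM, below the 4.39 TPM of all protein-coding genes. Nr4a2, a nuclear receptor that dopamine neurons need, had 4.72 ± 0.106 TPM, En1 4.46 ± 0.445 TPM, Foxa2 3.21 ± 0.00707 TPM and Lmx1a 2.54 ± 0.537 TPM, while Aldh1a1 and Slc6a3 had 0.075 ± 0.106 and 0.09 ± 0.0849 TPM. En1, Foxa2 and Lmx1a are expressed by other neural tube cells too. Whether any level of this list, that of Nr4a2 included, came from dopamine neurons was not tested. Otx2, a factor of forebrain and midbrain, had 0.13 TPM in replicate 1 and 0.26 TPM in replicate 2, from 4 counts in each. Some genes stand in more than 1 list.

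Receptors for these transmitters were nearly all below detection. Of 28 receptor genes 2 reached 1 TPM in both libraries, and 2, Drd3 and Drd5, had 0 counts in both. The 9 adrenergic receptor genes had a list median of 0.27 TPM. Adra2b was detected at 1.90 ± 0.410 TPM, Adra2a had 1.09 TPM in replicate 1 and 0.96 TPM in replicate 2, and Adra1a 0.54 ± 0.0566 TPM. Adrb1 and Adra2c were the lowest, at 0.13 ± 0.0424 and 0.21 ± 0.0283 TPM. None of 5 dopamine receptor genes was detected, with Drd4 at 0.595 ± 0.0495, Drd2 at 0.525 ± 0.177 and Drd1 at 0.32 ± 0.170 TPM. None of 14 serotonin receptor genes was either, from Htr7 at 0.515 ± 0.219 TPM, Htr2a at 0.385 ± 0.0495 TPM, Htr1b at 0.31 TPM in each library and Htr2b at 0.205 ± 0.205 TPM down to Htr1f and Htr3b at 0.035 ± 0.0212 and 0.035 ± 0.0495 TPM and Htr4 at 0.01 ± 0.0141 TPM. Over all 79 other genes of these lists, 42 (53.2%) were detected, and the median level was 1.82 TPM. For all protein-coding genes, the background of every list, these values were 59.9% and 4.39 TPM.

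**Figure D4:**
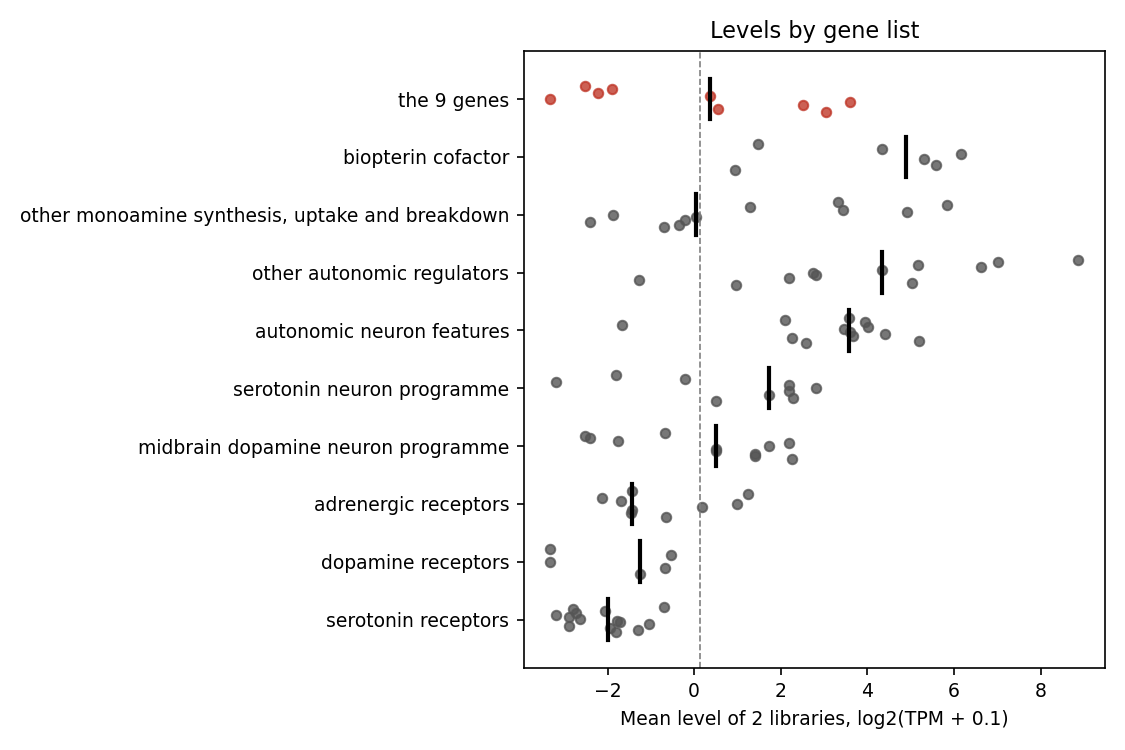
Mean level over 2 libraries as log2(TPM + 0.1) for each gene of each list, with the 9 genes in red, other lists in grey, a black bar at each list's median and a dashed line at 1 TPM. The biopterin cofactor genes lie above 1 TPM, the 9 genes spread from 0 to 11.98 TPM, and the serotonin and dopamine receptor genes all lie below 1 TPM.

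Cerebrospinal fluid contacting neurons, a spinal cell type in which Ddc has been described in rat, had neither of their 2 markers detected. Pkd2l1 had 0.99 TPM in replicate 1 and 0.93 TPM in replicate 2, just under the level called detected, and Pkd1l2 had 0 counts in both libraries.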

How the data were processed

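The labels call both libraries total RNA-seq and also cite a SmartSeq protocol, which leaves the library method unsettled. Each was made from 10 ng of RNA longer than 200 bases with spike-ins, per the labels. Expected counts, TPM, a posterior mean TPM and each transcript's percent of its gene were deposited by the authors on mm10 with GENCODE M4, per the deposited file descriptions. For aligner, quantifier and strandedness: not given in the sources used here. Deposited TPM includes spike-ins, which took 13.2% in replicate 1 and 11.8% in replicate 2.

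Identifiers were joined to GENCODE M21 (GRCm38, the same build) for symbols and positions; 42462 of 43346 gene identifiers matched. The members and lists were chosen with earlier results of these data known. No group was compared with another, so no significance test was run. Expected counts were rounded, library sizes were scaled by TMM factors of 0.996 and 1.004 (edgeR 4.0.16, R 4.3.3, genes and 97 spike-ins with 10 counts or more in at least 1 library; 26248 numbered entries were left out), and ratios used a prior count of 2. Intervals are exact (Poisson for levels, Clopper-Pearson for ratios) at 95% and, like the limit of 3 counts, cover counting error only; reads are not independent molecules. The libraries differed beyond sampling noise, with a chi-square of 5.35 per gene over 16136 genes. Of each list the 4 highest and 2 lowest genes were named, of each marker list the 3 highest and those at 0, and both genes of preset pairs; some of these are not reported here. Further genes named, namely Slc6a4, Otx2, Olig2, Sox1, Tbx20, Nkx2-5, Myh6 and Gata4, were chosen after their values were seen. Only the ratio between libraries and its interval were tested on simulated counts, whose only noise was Poisson sampling. That check did not cover counts as low as those of Tph2 and Phox2a. DESeq2 1.42.0 gave alternative size factors. All else used Python 3.11.15 with pandas 2.3.3, scipy 1.17.1 and numpy 2.4.6. The promoter windows came from RefSeq.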

Additional observations from a re-analysis of the deposited data

How the results depend on the processing

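No paired analysis was possible because there is 1 group, whose replicate numbers have no counterpart in another. The count of detected genes, 4 of 9, was 4 with posterior mean TPM and 5 at a threshold of 0.5 TPM or of 10 counts, and ran from 4 to 5 with 1 replicate left out; the added gene was Phox2a. Their median of 1.18 TPM ran from 0.88 to 1.23 TPM with 1 replicate left out. The count past 1.5-fold, 2 of 6, was 4 of 9 with no filter and 0 with a filter of 100 counts, which removes the low genes, and 2 under the other scalings. The genes added without a filter were Hand2 and Fev, which did not reach 10 counts. For these counts and those of detected genes, the shares over all genes at the alternative settings are not given here. With spike-in scaling the median log2 ratio of all tested genes was -0.20, against 0.00 with TMM factors, so Slc18a2 and Ddc then had -0.09 and -0.14. With a pseudocount of 1 TPM the log2 ratio of Dbh over Th was -1.94, of Slc18a2 over Slc18a1 2.75 and of Tph2 over Tph1 -0.53, since a larger pseudocount pulls low genes together. With posterior mean TPM the ratio of Slc18a2 over Slc18a1 was 2.91. With 1 replicate left out, Ddc over Th ran from -0.58 to -0.44, Dbh over Th from -2.78 to -2.19, Slc18a2 over Slc18a1 from 3.40 to 3.73 and Tph2 over Tph1 from -1.92 to -1.30. Posterior mean TPM gave 0.465 for Tph2, 0.35 for Fev and 0.03 for Slc6a2, which had no counts. Ratios with Slc6a2 or Hand2 were not run, because counts of 3 or fewer lay behind them. Depth limits Tph2, Hand2 and Fev, each with 11 counts or fewer in each library.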
